A study of Mus musculus with 270 samples.

Results

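The testes of male C57BL/6J mice were compared between 20 and 14 months (M) of age, from middle to old age. The 7 libraries labelled testis at 20 M and the 9 at 14 M were chosen, 16 of the 45 testis libraries and of the 270 libraries of the series. Every mouse was wild type and male, gave 1 library per organ, and received no treatment. The other testis libraries came from younger mice (3, 5 and 8 M) and from older ones (26 M). A whole testis was sequenced as poly(A) RNA, so that the values are averages over its cells. Single libraries are named by age and replicate (20 M r7). The number pairs no mice between ages. It did follow the split of the mice by their heart libraries given below, with 14 M r1 to r5 and 20 M r1 to r3 in the second set. The cause of this split was not tested.

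The testis makes sperm in seminiferous tubules, where spermatogonia divide, spermatocytes pass through meiosis and spermatids pack their chromatin with protamines, all held by Sertoli cells and wrapped by contractile peritubular myoid cells. Between the tubules lie Leydig cells, which turn cholesterol into testosterone under luteinizing hormone, and resident macrophages. Germ cells supply most of the RNA of an adult testis, and transcripts of the interstitial cells are thus read against a large germ cell background.

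Depth was similar in the age groups, from 10347232 to 14308791 reads at 20 M and from 9421532 to 15708813 at 14 M (two-sided exact permutation test, p = 0.732). Defining markers of germ cells, Sertoli cells and Leydig cells were found in every library, while Insl3, Sycp3, Tnp1, B2m and the 13 mitochondrially encoded genes were listed at 0 in all 45 libraries, and a value of 0 is therefore not read as absence here. Of 9 epididymis genes only 1 passed the filter on low values, and their sum was 18.0 to 39.1 normalized counts at 14 M and 26.1 to 40.2 at 20 M. Libraries 14 M r2, 14 M r3 and 20 M r2 stood apart in the reads of genes of other organs. Their 10 hepatocyte genes summed to 571, 815 and 981 normalized counts, against 15.9 to 61.0 in the other 13 libraries, and their 10 kidney tubule genes to 526.1, 843 and 856 against 42.6 to 101.8. Their 7 lung epithelium genes summed to 596, 850 and 1044 against 27.1 to 82.3, and their 9 neuron and glia genes to 1042, 1287 and 1490 against at most 844. Their 6 cardiomyocyte genes summed to 2964.5, 2613 and 3743, but 14 M r6 reached 3705 as well, and the other 12 libraries lay between 1459 and 2144. The 6 genes of skeletal muscle fibres summed to 42.6 to 93.1 in the 16 libraries. The first principal component of the 16 libraries held 21.2% of the variance, and Kap, Pigr, Alb and Ttr, genes of kidney, mucosa and liver, had the largest loadings on it. Libraries 20 M r2 (-49.96), 14 M r3 (-43.3) and 14 M r2 (-16.7) lay on one side of it, as did 14 M r4 (-35.7) and 14 M r5 (-20.7), which were not high in the hepatocyte, kidney and lung lists, and the other 11 lay between 3.06 and 28.2. These lists were drawn up after the libraries had been seen. Results are given also without the first 3 libraries where they changed, and the counts for Leydig, macrophage and chemokine genes also without 14 M r4, r5 or r6.

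**Figure D1:**
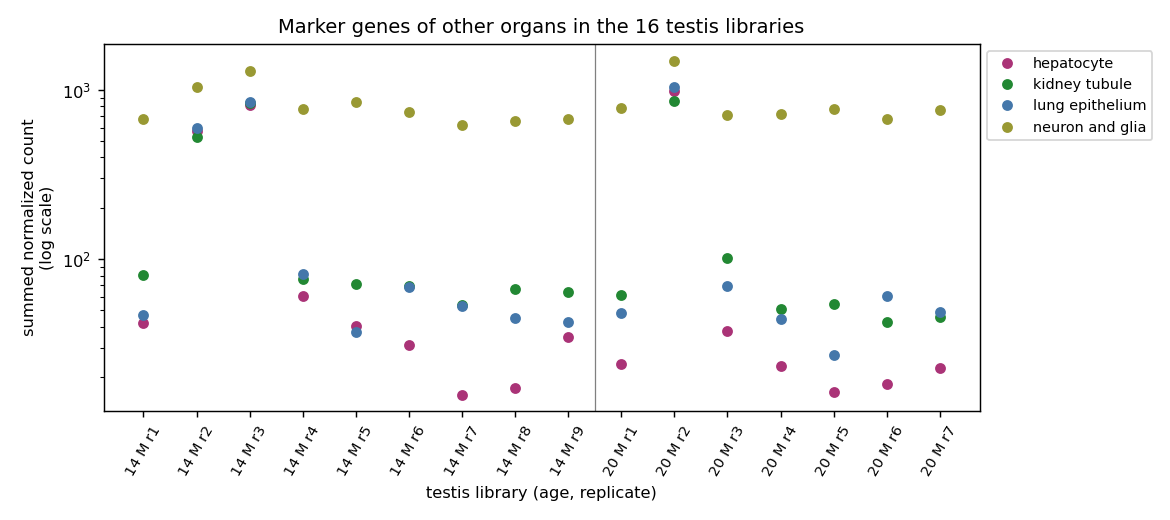
Summed normalized counts (log scale) of marker genes of hepatocytes, kidney tubule, lung epithelium, and neurons and glia in each of the 9 libraries at 14 M and the 7 at 20 M. The first 3 lists stood above 500 in 14 M r2, 14 M r3 and 20 M r2 and at or under 101.8 in the other 13 libraries.

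No gene passed the test between 20 and 14 M. A gene was tested when 5 or more of the 45 libraries had 10 or more normalized counts, as log2(normalized count + 1) with limma and Benjamini-Hochberg adjustment, and 0 of 19613 genes, 0% of those tested, reached an adjusted p of at most 0.05. At an unadjusted p of at most 0.05, with no adjustment for the number of genes, 824 genes were counted, 4.2% of those tested. Of these, 372 (1.9%) were higher and 452 (2.3%) lower at 20 M, and counts of list members at this p are to be read beside these shares. edgeR's quasi-likelihood test on the recovered reads called 0 genes, with 852 at an unadjusted p of at most 0.05, and DESeq2 called 2 genes, Mt3 and Ccl8, with 858 at an unadjusted p of at most 0.05. All differences below are differences in log2(normalized count + 1), 20 M minus 14 M, with their standard error (SE), and this scale understates the change of low genes. Genes described only by an unadjusted p did not pass the test.

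The intervals around these differences were narrow. The median SE was 0.147, and the median size of the difference was 0.0924. For 18455 genes (94.1%) the 95% confidence interval lay within a 2-fold change in either direction, and for 14452 genes (73.7%) it lay within 1.5-fold. Of the 10594 genes with a mean of at least 100 normalized counts over the 16 libraries, 10552 (99.6%) had an interval within 2-fold. A difference over 1 in size was found for 30 genes, and 4 of these had a mean of at least 100. Counts were also simulated at the means and depths of the testis libraries, with genes altered only where the mean was at least 100 normalized counts. There the same test recovered 79 of 100 genes altered by 1.5-fold and 100 of 100 altered by 2-fold, and called 13 other genes. Each gene was drawn independently with a spread fitted by edgeR (median dispersion 0.0327), and all altered genes were altered at once. Recovery of lower genes or of genes with a wider spread was not measured, and no simulated library stood apart by reads of other organs. In the real data Ass1, with a mean of at least 100 and a difference of -1.22 (SE 0.31), was not called. In the other organ tables, normalized separately and not tested against testis, the median SE for the same ages was 0.260 in kidney, 0.262 in heart, 0.255 in skeletal muscle and 0.741 in lung, with 3817, 19, 34 and 0 genes called.

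The smallest p of the comparison belonged to Mt3 (chr8:94152607-94154146, GRCm38, + strand), which encodes metallothionein 3, a small protein that binds zinc and copper. Mt3 was listed at 27.9, 22.1, 43.4, 45.5, 50.5, 38.7, 34.9, 47.0 and 36.0 normalized counts at 14 M (r1 to r9) and at 15.7, 19.5, 15.2, 28.9, 5.81, 27.1 and 6.22 at 20 M (r1 to r7). All 7 libraries at 20 M lay under the median at 14 M, 5 of them lay under every library at 14 M, and only 20 M r4 and r6 reached into the range of the younger group. The mean was 38.4 ± 9.29 at 14 M (SD, n = 9) and 16.9 ± 9.09 at 20 M (SD, n = 7), a difference of -1.29 (SE 0.25, 95% CI -1.79 to -0.80, adjusted p = 0.0707, limma). Under 6 of 27 alternatives it passed the threshold, among them quantile normalization (adjusted p = 0.0478, limma), the set of mice as a block (0.0455) and DESeq2 (0.0116), while the adjusted p was 0.720 in limma fitted on these age groups alone, 0.223 in edgeR and 0.623 without 20 M r5. Without the 3 libraries with reads of other organs the difference was -1.43 (adjusted p = 0.0701, limma).

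The other ages set these groups in context. In the 7 mice of 3 M the mean of Mt3 was 34.0 ± 7.85, in the 9 of 5 M it was 37.9 ± 12.1, in the 8 of 8 M it was 35.6 ± 8.28, and in the 5 of 26 M it was 22.1 ± 7.74 (SD). The 4 younger groups thus lay close together, and 20 M and 26 M were the lowest of the 6 ages. In the other organs the difference of Mt3 was 0.12 (SE 0.82) in kidney, -0.02 (SE 0.48) in heart, -0.51 (SE 1.12) in lung and 0.72 (SE 0.49) in skeletal muscle, each with an interval that includes 0.

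Steroidogenic genes of Leydig cells had differences in both directions, and none passed the test. Of 10 Leydig cell genes 9 were tested and Insl3 was listed at 0. At an unadjusted p of at most 0.05, 3 were lower (Cyp11a1, Cyp17a1 and Star) and 1 was higher (Hsd3b1), against 2.3% and 1.9% of all genes, and the median difference of the list was -0.22, beside 0.005 for all tested genes. Of the 9, 7 had a negative and 2 a positive difference. With 1 library left out, the median ran from -0.34 (without 20 M r6) to -0.09 (without 20 M r1), and it was -0.098 without 20 M r2 and -0.13 without 20 M r7. In whole tissue, fewer cells of a type and less RNA per cell cannot be told apart.

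Star, which carries cholesterol into the mitochondrion, was listed at 919 to 1771 normalized counts at 14 M (median 1391) and at 399 to 1341 at 20 M (median 1026). The difference was -0.52 (SE 0.18, adjusted p = 1.000, limma). The 20 M libraries all lay under the 14 M median, 3 of them under every 14 M library. Cyp11a1 (chr9:58006411-58027023, + strand), the enzyme that cuts the side chain of cholesterol, ranged from 287 to 729 at 14 M (median 505) and from 79.8 to 602 at 20 M (median 278). Its difference was -0.93 (SE 0.26, adjusted p = 0.585, limma). The groups overlapped, with 4 of 7 libraries at 20 M under all of those at 14 M and 20 M r6 above the 14 M median.

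Cyp17a1 (chr19:46667165-46673172, - strand), the enzyme that leads from progestins to androgens, was listed at 907 to 1885 at 14 M (median 1329) and at 192 to 1251 at 20 M (median 829.4). Its difference was -0.87 (SE 0.25, adjusted p = 0.697, limma), and all 7 libraries at 20 M lay under the median at 14 M. Fdx1, which hands electrons to the side-chain cleavage enzyme, was 340 ± 35.4 at 14 M (SD, n = 9) and 292 ± 32.1 at 20 M (SD, n = 7), a difference of -0.22 (SE 0.09). It was the 1 gene of 19 of cholesterol synthesis and supply with an unadjusted p of at most 0.05.

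Hsd3b1 went the other way. This 3β-hydroxysteroid dehydrogenase was listed at 182 to 305 normalized counts at 14 M (median 268) and at 247 to 545 at 20 M (median 314), a difference of 0.40 (SE 0.16). Of the 7 libraries at 20 M, 5 lay above every library at 14 M. Its near copy Hsd3b6 had a difference of -0.31 (SE 0.19), and how reads were shared between these copies is uncertain. The remaining Leydig genes had small differences with intervals that include 0. Hsd17b3, which makes testosterone, had -0.08 (95% CI -0.39 to 0.23), the luteinizing hormone receptor Lhcgr -0.22 (95% CI -0.59 to 0.15), the lipoprotein receptor Scarb1 -0.08 (95% CI -0.22 to 0.07) and Nr5a1, a regulator of steroid synthesis that Sertoli cells also use, 0.02 (95% CI -0.17 to 0.20).

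Ass1, the urea cycle enzyme that makes argininosuccinate, had the largest difference among the lower genes with a mean of at least 100 named by rule. It was listed at 113 to 324 normalized counts at 14 M (median 244) and at 12.4 to 212 at 20 M (median 123), a difference of -1.22 (SE 0.31, adjusted p = 0.405, limma). All 7 libraries at 20 M lay under the median at 14 M.

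Library 20 M r7 carried a large part of these differences. It had the lowest Star (399), Cyp11a1 (79.8), Cyp17a1 (192), Hsd3b6 (189) and Ass1 (12.4) of the 16 libraries, and the highest Hsd3b1 (545). Without it the difference was -0.33 for Star, -0.65 for Cyp11a1, -0.56 for Cyp17a1, 0.29 for Hsd3b1 and -0.75 for Ass1, and 3 Leydig genes were lower and 0 higher at an unadjusted p of at most 0.05. Without it and the 3 libraries with reads of other organs, the differences were -0.39 for Star, -0.37 for Cyp11a1, -0.36 for Cyp17a1 and -0.68 for Ass1, and 1 Leydig gene was lower and 1 higher. Hsd17b3 then turned to 0.15 and Hsd3b6 to 0.07. Fold sizes of these 4 genes thus depended on a few libraries, while their direction was the same under each of the 27 alternatives. The alternatives refit the same libraries, so that a kept direction is not separate evidence.

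**Figure D2:**
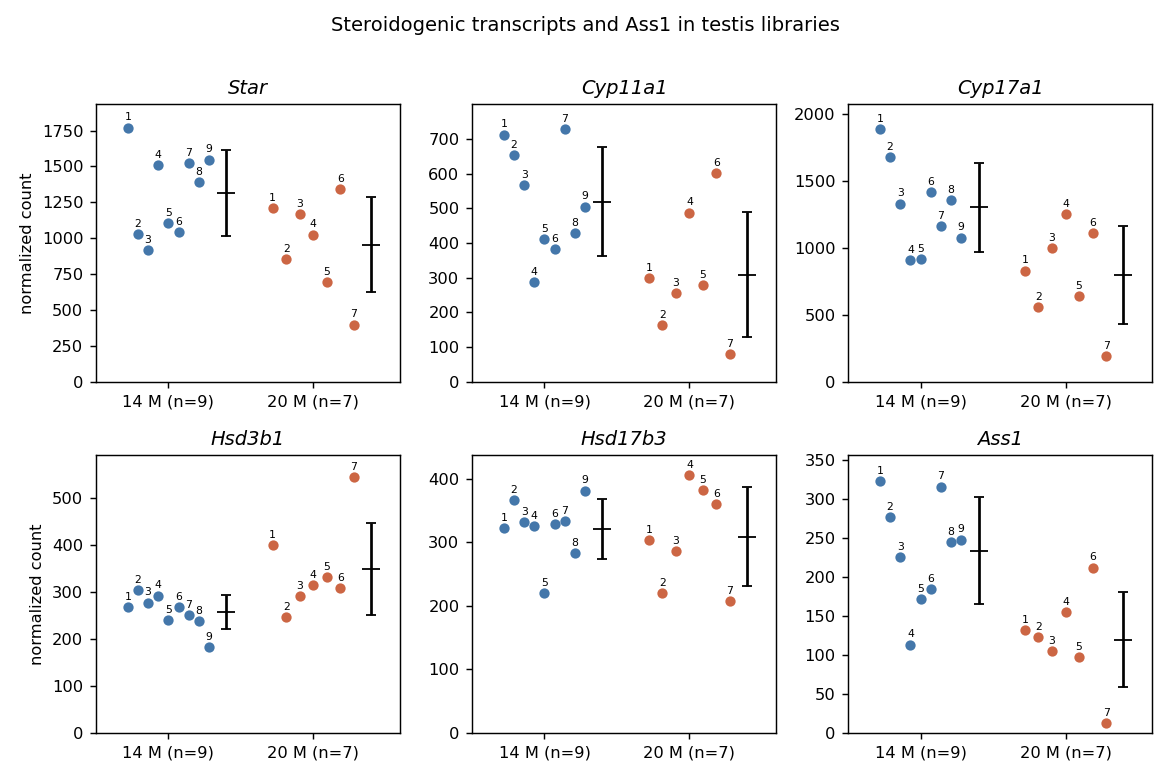
Normalized counts of Star, Cyp11a1, Cyp17a1, Hsd3b1, Hsd17b3 and Ass1 in each library at 14 M (blue, n = 9) and 20 M (orange, n = 7). Numbers are replicates, and the black bars are mean ± SD. Replicate 7 at 20 M was lowest for Star, Cyp11a1, Cyp17a1 and Ass1 and highest for Hsd3b1.

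In the younger mice, Cyp17a1 had a mean of 1527 ± 184 (3 M), 1552 ± 270 (5 M) and 1371 ± 478 (8 M), and in the oldest of 1017 ± 232 (26 M; SD). The mean at 26 M lay between those of 14 and 20 M. Cyp11a1 was 414 ± 120 in mice of 3 M, 511 ± 88.5 in those of 5 M, 454 ± 164 in those of 8 M and 431 ± 128 in those of 26 M, beside 519 ± 156 for 14 M and 309 ± 181 for 20 M, so that the spread within each age was wide. Ass1 had means of 217 ± 39.8 (3 M), 285 ± 51.6 (5 M), 217 ± 80.2 (8 M) and 164 ± 35.3 (26 M), all above the 120 ± 60.8 of 20 M. Hsd3b1 had a mean of 337 ± 48.8 at 3 M, beside 349 ± 98.1 at 20 M.

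Some chemokine transcripts had positive differences, again without passing the test of limma. Of 17 cytokine and chemokine genes 9 were tested, and 4 were higher at an unadjusted p of at most 0.05 (Ccl8, Cxcl13, Tgfb1 and Cxcl9) and 0 lower, against 1.9% and 2.3% of all genes. Of the 9, 7 had a positive and 2 a negative difference, and the median was 0.36, or 0.21 without 20 M r4. Ccl8 (chr11:82115185-82116799, + strand), a chemokine that draws monocytes and T cells, was listed at 9.30, 7.35, 2.02, 4.84, 4.49, 10.3, 6.34, 4.35 and 1.29 normalized counts at 14 M (r1 to r9). At 20 M (r1 to r7) it was listed at 23.0, 25.3, 21.4, 9.99, 23.2, 10.6 and 19.7. The 20 M libraries were thus above all of those at 14 M except r4, which lay just inside their range. Ccl8 reached the 10 normalized counts of the filter in every 20 M library but r4, and at 14 M only in r6. The 20 M libraries alone were enough for Ccl8 to be tested, and also for Cxcl13. Their place in the count of 4 was therefore not independent of their high values at 20 M. The difference was 1.69 (SE 0.41, 95% CI 0.87 to 2.52, adjusted p = 0.385, limma), and DESeq2 gave 1.76 (adjusted p = 0.0116).

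Cxcl13 (chr5:95956951-95961068, + strand), the chemokine that guides B cells to follicles, was listed at 11.2, 7.35, 13.1, 3.87, 2.24, 10.3, 10.6, 2.61 and 2.57 at 14 M and at 12.1, 103.4, 37.5, 23.3, 10.6, 3.87 and 25.9 at 20 M. Library 20 M r2, one of the 3 with reads of other organs, was by far the highest, and 20 M r6 lay low in the range of 14 M. The difference was 1.61 (SE 0.47, adjusted p = 0.697, limma) with all libraries and 1.23 without 20 M r2. Tgfb1, a cytokine of many cell types, was 68.4 ± 10.7 at 14 M and 94.1 ± 15.7 at 20 M (SD), with 5 of 7 libraries above every one at 14 M, a difference of 0.46 (SE 0.14). Cxcl9, a chemokine induced by interferon gamma, had a difference of 0.62 (SE 0.24). The remaining members had differences from -0.16 for Cxcl12 to 0.36 for Ccl5. Ccl2 and Cxcl10 were listed at 0 in all libraries, and Ccl7, which did not pass the filter, was listed at 0 to 5.22 at 14 M and 2.22 to 10.7 at 20 M.

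**Figure D3:**
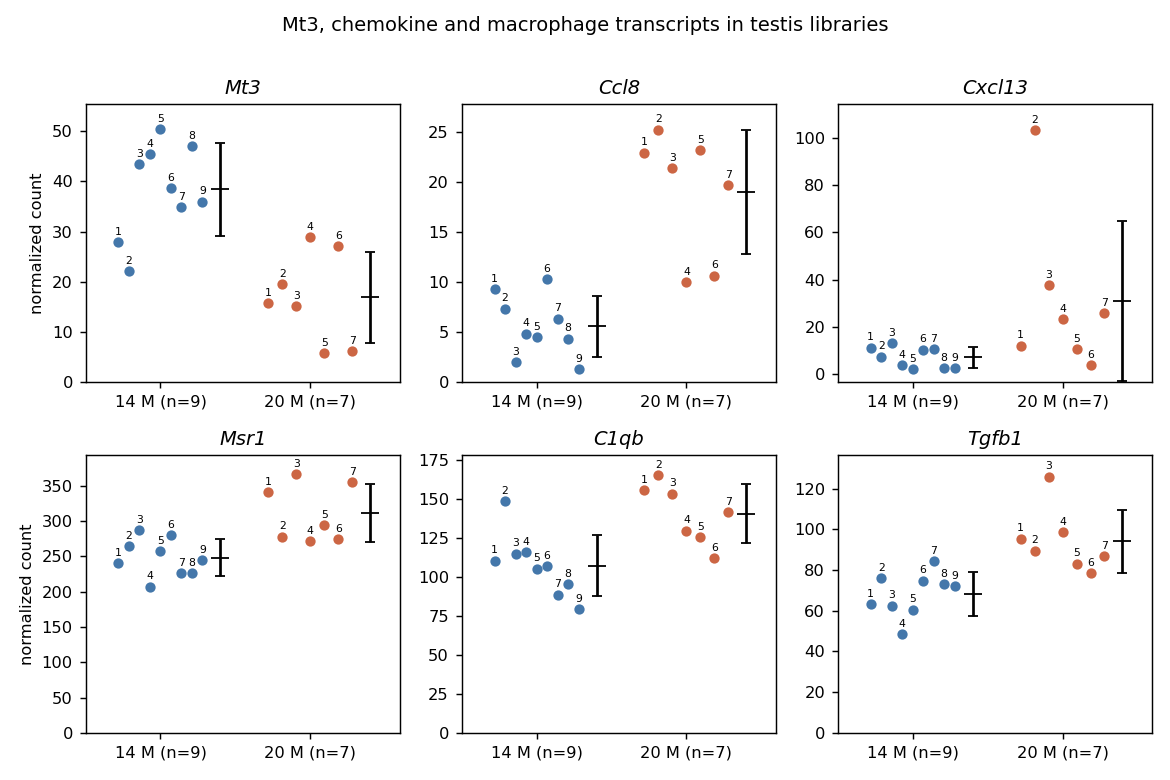
Normalized counts of Mt3, Ccl8, Cxcl13, Msr1, C1qb and Tgfb1 in each library at 14 M (blue, n = 9) and 20 M (orange, n = 7). Numbers are replicates, and the black bars are mean ± SD. For Ccl8, 6 of 7 libraries at 20 M lay above every library at 14 M, and for Mt3, 5 of 7 lay below every one.

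Macrophage genes did not pass the test either. Of 10 macrophage genes 9 were tested, and 3 (C1qb, C1qa and Lyz2) were higher at an unadjusted p of at most 0.05 and 0 lower, against 1.9% and 2.3% of all genes. Of the 9, 8 had a positive and 1 a negative difference, with a median of 0.22. The count of 3 fell to 1 without 14 M r5, without 14 M r9, without 20 M r3 or without 20 M r5. Their sum was 608 to 842 normalized counts at 14 M and 706 to 1031 at 20 M. C1qb, a chain of the first complement component, was listed at 79.7 to 149 at 14 M (median 107) and at 112 to 165 at 20 M (median 142), and all 7 libraries at 20 M lay above the 14 M median. Its difference was 0.39 (SE 0.15), and those of C1qa and the lysozyme gene Lyz2 were 0.52 (SE 0.24) and 0.57 (SE 0.28). Other markers had intervals that include 0, namely Csf1r, the receptor for the macrophage growth factor (0.22, SE 0.18), Adgre1, which encodes the F4/80 antigen (0.14, SE 0.16), the mannose receptor Mrc1 (0.10, SE 0.15), Cd68 (0.09, SE 0.22) and the haemoglobin scavenger receptor Cd163 (-0.11, SE 0.18). Msr1, the macrophage scavenger receptor, had the smallest p among the higher genes with a mean of at least 100 once predicted genes are left out, with 248 ± 26.4 at 14 M and 312 ± 41.2 at 20 M (SD) and a difference of 0.32 (SE 0.09, adjusted p = 0.671, limma).

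Without the 3 libraries with reads of other organs, 4 cytokine and chemokine genes, 3 macrophage genes and 1 Leydig gene were higher and 3 Leydig genes lower at an unadjusted p of at most 0.05, the same numbers as with them. Without 14 M r4, without r5 or without r6 of that age, the numbers were also 4 higher cytokine and chemokine genes, 1 higher Leydig gene and 3 lower ones, while 2, 1 and 3 macrophage genes were higher.

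Genes of lymphocytes and of antigen presentation were low in these libraries. Of 12 lymphocyte and plasma cell genes 5 were tested, and 2 were higher at an unadjusted p of at most 0.05, against 1.9% of all genes. These were Mzb1 (0.74, SE 0.26), a chaperone of antibody secretion, and Ighm (0.87, SE 0.32), the IgM heavy chain. Ighm was highest in 20 M r2 (83.9), 14 M r6 (58.0) and 20 M r1 (55.6), and without 20 M r2 its difference was 0.65. Of 20 interferon and antigen presentation genes 14 were tested, and Cd74, the invariant chain of class II molecules, and the interferon-induced Oasl2 were higher (0.61, SE 0.22, and 0.25, SE 0.11). The median of this list was 0.23, and 0 were lower at an unadjusted p of at most 0.05. Of all genes 1.9% were higher and 2.3% lower at this p.

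The differences were also taken within the sets of mice defined by their heart libraries, of 4 against 4 mice in the first and 3 against 5 in the second, which held all 3 libraries with reads of other organs. They were -1.48 and -1.07 for Mt3, 1.495 and 1.99 for Ccl8, 1.11 and 2.33 for Cxcl13, and 0.29 and 0.38 for Msr1. Among steroidogenic genes they were -0.80 and -1.10 for Cyp11a1, -0.95 and -0.73 for Cyp17a1, -0.79 and -0.20 for Star, and 0.65 and 0.15 for Hsd3b1. For these 8 genes the sign was the same in both sets, while the values of Cxcl13, Star and Hsd3b1 differed between them by more than 1.5 times, a difference that was not tested. Of the 9 Leydig genes tested, 7 had the same sign in both sets, and the others were Lhcgr, with 0.16 in the first and -0.79 in the second, and Nr5a1, with 0.018 and -0.0018. Of the 9 macrophage genes 6 had the same sign, and Cd68, Adgre1 and Mrc1 did not. Lyz2 had 0.15 in the first set and 1.07 in the second, and C1qc 0.15 and 0.74, while C1qa had 0.58 and 0.51 and C1qb 0.46 and 0.42. The second set also had the larger values for Cd74 (0.20 and 1.07), Ighm (0.35 and 1.49) and Tgfb1 (0.19 and 0.73). Among lower genes given below, it had the larger ones for Ctsb (-0.05 and -0.67), Dnmt3l (-0.09 and -0.53) and Meiob (-0.06 and -0.28). Cox6b1 turned in sign (0.06 and -0.62), while Bex3 had -0.39 and -0.27.

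In only 5 genes did the groups not overlap. Higher in every library at 20 M than in any at 14 M were 4 of the 19613 genes (0.0204%), among them P2rx7, Eng and Ifi202b, and lower in every one was 1 gene (0.0051%). The 3 named here were chosen after their values had been seen. P2rx7, an ATP-gated channel of immune cells, ranged from 64.6 to 88.7 at 14 M and from 88.8 to 126 at 20 M, so that the groups were separated by less than 1 normalized count. Eng, the TGF-beta co-receptor endoglin, ranged from 21.3 to 31.0 and from 31.9 to 53.9, and Ifi202b, an interferon-induced gene with close paralogs, from 3.03 to 11.6 and from 12.2 to 20.7.

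The same contrast was taken in the other organs, whose tables were normalized separately and were not tested against testis. Ccl8 had a difference of 3.87 (SE 0.55) in kidney, 2.27 (SE 0.51) in skeletal muscle, 1.89 (SE 0.61) in heart and 0.38 (SE 0.98) in lung, beside the 1.69 of testis. Cxcl13 had 3.75 (SE 0.46) in kidney, 2.33 (SE 0.44) in skeletal muscle, 1.98 (SE 0.55) in heart and 1.20 (SE 0.82) in lung. Msr1 had 3.50 (SE 0.36) in kidney and 0.73 (SE 0.16) in heart, and Ass1 had -1.50 (SE 0.38) in kidney. The organs came from the same mice, so that these values are not independent.

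Among the supporting cells, Acta2 (chr19:34241090-34255590, - strand), smooth muscle actin of the peritubular myoid cells and of vessels, was lower. It was listed at 206 to 312 normalized counts at 14 M (median 251) and at 128 to 240 at 20 M (median 206), with all 7 libraries at 20 M under the median at 14 M. The difference was -0.43 (SE 0.11, adjusted p = 0.466, limma). It was the 1 gene of 6 myoid genes with an unadjusted p of at most 0.05, and the list had a median of -0.29. The contractile genes Myh11 (-0.31, SE 0.17), Tagln (-0.35, SE 0.24) and Cnn1 (-0.28, SE 0.17) had intervals that include 0, and Des (0.05, SE 0.16) and Actg2 (0.06, SE 0.10) had small positive values. Of 22 extracellular matrix genes 20 were tested, with a median of -0.11. At an unadjusted p of at most 0.05, Bgn was higher (0.37, SE 0.15), and Col1a2 (-0.38, SE 0.14) and Lamb1 (-0.22, SE 0.11) were lower, against 1.9% and 2.3% of all genes. Nid2, a basement membrane protein, was also lower (-0.36, SE 0.11).

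Of 10 Sertoli cell genes, Fshr, the receptor for follicle-stimulating hormone, was higher at an unadjusted p of at most 0.05. It was 37.7 ± 6.08 at 14 M and 56.8 ± 11.3 at 20 M (SD), with all 7 libraries at 20 M above the 14 M median and a difference of 0.57 (SE 0.20). Sox9 had a difference of 0.31 (95% CI -0.05 to 0.68) and was highest in 14 M r9 (410) and 20 M r7 (437), and Rhox5 had 0.11 (95% CI -0.13 to 0.35). The list had a median of 0.05, and all 10 intervals lay within 2-fold. Of 12 blood-testis barrier genes 0 reached an unadjusted p of at most 0.05, and all 12 intervals lay within 2-fold. None of 8 endothelial genes reached an unadjusted p of at most 0.05, and 7 of them had an interval within 2-fold.

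Few germ cell transcripts differed, and their intervals were narrow. Of 10 spermatogonial genes 1 was higher at an unadjusted p of at most 0.05, against 1.9% of all genes. It was Sohlh1, a regulator of differentiation (0.33, SE 0.15). Gfra1, the receptor of undifferentiated spermatogonia, had -0.14 (95% CI -0.37 to 0.09), and Stra8, which marks the entry into meiosis, 0.25 (95% CI -0.05 to 0.55). Of the 9 spermatocyte genes, 8 round spermatid genes and 8 elongating spermatid genes tested, 0 reached an unadjusted p of at most 0.05, with medians of -0.005, -0.042 and -0.009. Every tested gene of these 4 lists had its interval within 2-fold. Prm1, the first protamine, was listed at 13406 to 54530 normalized counts at 14 M and 16002 to 26739 at 20 M. The difference of Prm1 was -0.24 (95% CI -0.69 to 0.21), and its high values were 14 M r4 (54530) and 14 M r5 (33281). Acrv1, an acrosomal protein of round spermatids, had -0.02 (95% CI -0.25 to 0.20).

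Of 19 meiosis genes tested, 1 was lower at an unadjusted p of at most 0.05, Meiob (-0.17, SE 0.08), which acts in meiotic repair. Of 19 genes of the piRNA pathway, which silences transposons in germ cells, 1 was lower, Dnmt3l (-0.34, SE 0.15). The medians of the meiosis and piRNA lists were -0.045 and -0.033, and 2.3% of all genes were lower at this p.

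Lists for ageing and stress gave few genes. In SenMyo, a published list of genes of senescent cells, 76 of 118 genes were tested, with a median of 0.03. At an unadjusted p of at most 0.05, Ccl8 was higher, against 1.9% of all genes. Bex3 (-0.33, SE 0.12), Ctsb (-0.45, SE 0.19) and Hgf (-0.25, SE 0.11) were lower, against 2.3% of all genes. Ccl8 and other members stood in the chemokine list too. Of 11 genes of cell cycle arrest and senescence tested, 0 reached an unadjusted p of at most 0.05, among them Cdkn1a (-0.09, 95% CI -0.26 to 0.09) and Cdkn2a (-0.05, 95% CI -0.29 to 0.18), which encode the cell cycle inhibitors p21 and, from a shared locus, p16 and p19. All 11 intervals lay within 2-fold. Antioxidant enzymes, cytosolic ribosome, circadian clock and immediate early genes had no member at an unadjusted p of at most 0.05 among 21, 26, 13 and 10 genes tested. Oxidative phosphorylation had 1 lower gene of 27 (Cox6b1, -0.35, SE 0.17), against 2.3% of all genes. Heat shock proteins had 1 lower of 17 (Hspa1b, -0.61, SE 0.29, at 3.63 to 14.9 normalized counts), against the same share.

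Genes listed for blood and fat varied between libraries. Of 5 red blood cell genes tested Slc4a1 was higher (0.55, SE 0.26), while the haemoglobin genes Hbb-bt (0.78, SE 0.55) and Hba-a2 (-0.35, SE 0.30), which share reads with close copies, had intervals that include 0. Of 6 adipocyte genes tested, 3 had a positive and 3 a negative difference, with a median of -0.05, and Retn, which encodes resistin, was the 1 at an unadjusted p of at most 0.05 (-0.95, SE 0.41). The complement factor gene Cfd, at 0 to 21.4 normalized counts, had 1.11 (SE 0.68). Retn was listed at 110 to 1056 at 14 M and at 68.8 to 276 at 20 M, and 14 M r4 (1056), r3 (538) and r5 (470) held its highest values. These libraries also held the highest Prm1 of their age (54530, 28739 and 33281). The adipocyte gene Plin1 was highest in 14 M r7 (34.9), with 25.2 in 14 M r4. Whether Retn came from fat was not tested. Without 14 M r4 the difference was -0.68. The number of adipocyte genes lower at an unadjusted p of at most 0.05 was 0 without 14 M r3, without 14 M r4, without 14 M r5 or without 20 M r4, and without 14 M r4 1 gene was higher.

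**Figure D4:**
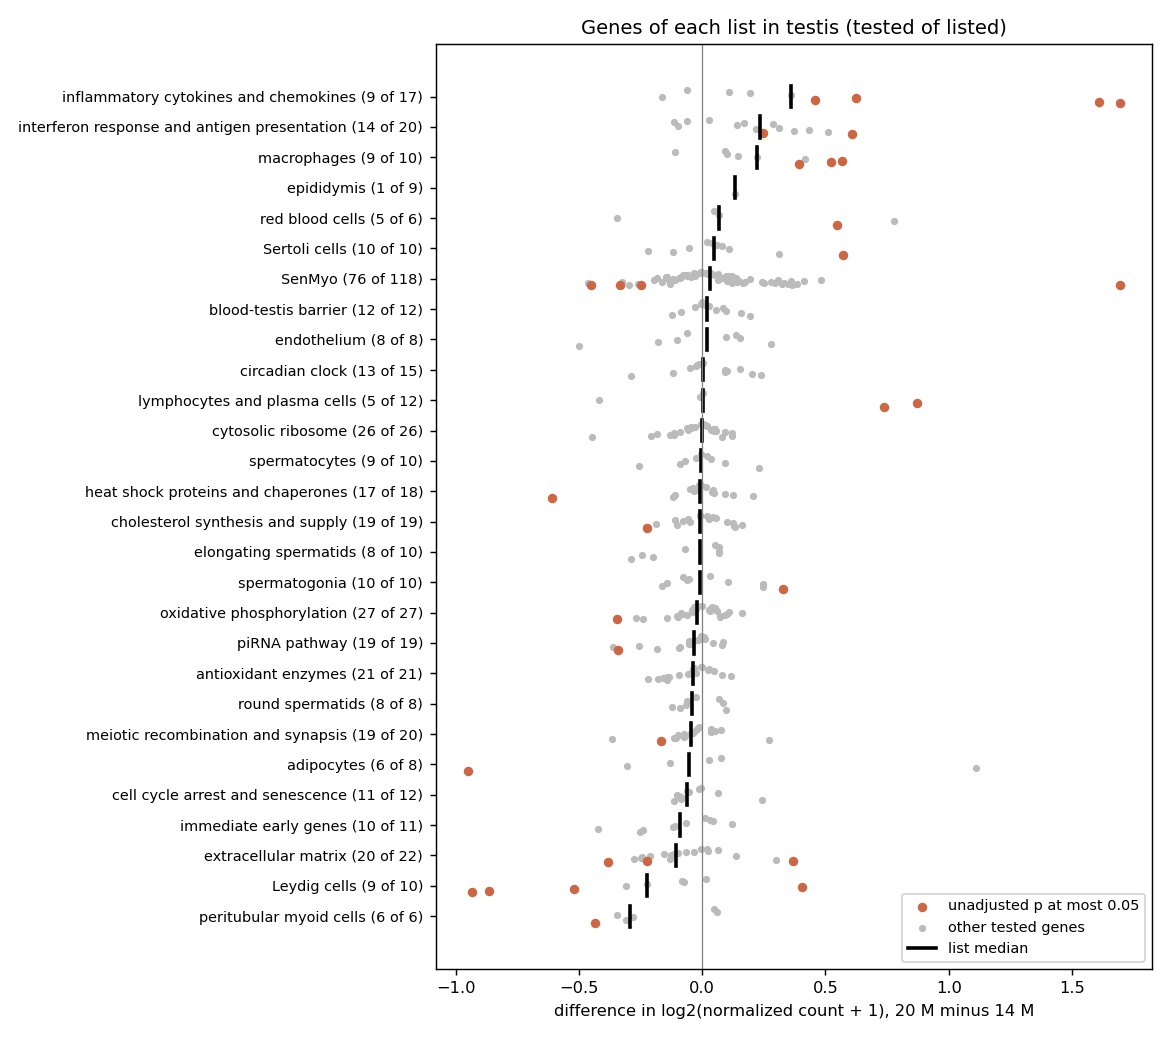
Differences in log2(normalized count + 1), 20 M minus 14 M, of the tested genes of each list (points), with genes at an unadjusted p of at most 0.05 in orange and the list median as a black bar. The medians ran from -0.29 for peritubular myoid cells and -0.22 for Leydig cells to 0.36 for cytokines and chemokines, and those of the germ cell lists lay between -0.042 and -0.005.

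The remaining genes named by rule were spread over many functions. Among higher genes with a mean of at least 100 were Npl, an enzyme of sialic acid breakdown (0.40, SE 0.12), Glp2r, the receptor for glucagon-like peptide 2 (0.38, SE 0.13), Kndc1 (0.30, SE 0.11), the aminopeptidase Rnpep (0.30, SE 0.11), the DNA repair factor Xrcc4 (0.29, SE 0.10), the poly(A) ribonuclease Parn (0.23, SE 0.08) and Epsti1 (0.18, SE 0.07). Among lower genes were the calpain protease Capn2 (-0.45, SE 0.11), the transcription factor Gata6 (-0.36, SE 0.09), the semaphorin Sema4c (-0.36, SE 0.10), the Notch ligand Jag1 (-0.31, SE 0.09) and Wdfy3 (-0.23, SE 0.07). Capn2 was listed at 207 to 380 normalized counts at 14 M and at 156 to 217 at 20 M, and 6 of 7 libraries at 20 M lay under every library at 14 M. Gata6, a factor of Leydig and Sertoli cells, was listed at 134 to 186 at 14 M and at 102 to 145 at 20 M. All 7 libraries at 20 M lay under the 14 M medians of both genes. For both, and also for Sema4c, Jag1, Wdfy3 and Nid2, 14 M had the highest and 20 M the lowest mean of all ages. These genes were picked by the difference between these age groups, which favours such a pattern. Capn2 had means of 208, 215, 213 and 222 at 3, 5, 8 and 26 M, beside 262 at 14 M and 190 at 20 M. Gata6 had 138, 131, 136 and 145 at those ages, beside 161 at 14 M and 125 at 20 M.

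Low or unnamed genes with small p included the predicted genes Gm14168 (0.91, SE 0.20), Gm3839 (1.24, SE 0.30) and 4930511M06Rik (0.39, SE 0.09), which were higher, and the coagulation factor F7 (-0.92, SE 0.21) and the homeobox gene Irx2 (-0.52, SE 0.13), which were lower. F7, a liver gene, was listed at 12.9 to 36.0 normalized counts at 14 M and at 7.25 to 15.7 at 20 M, and its difference without the 3 libraries with reads of other organs was -0.88. Fetub, a secreted protease inhibitor, and Osbpl1a, an oxysterol-binding protein, had differences of 0.60 (SE 0.28) and -0.17 (SE 0.07).

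**Figure D5:**
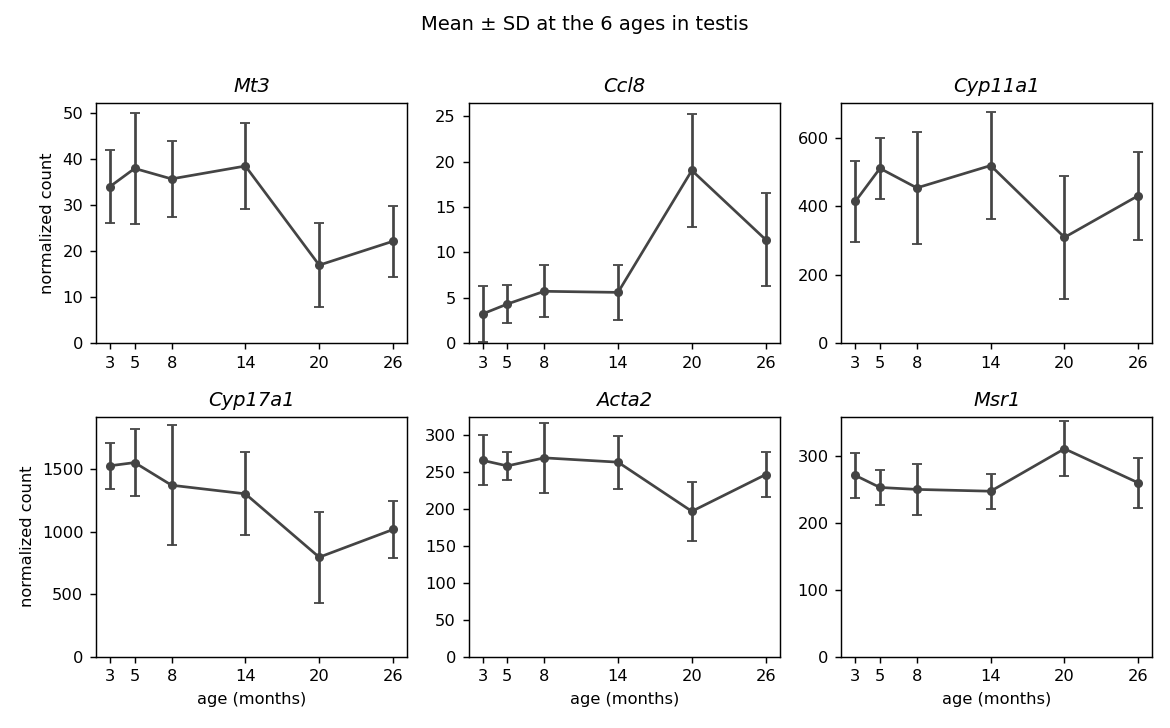
Mean ± SD of the normalized counts of Mt3, Ccl8, Cyp11a1, Cyp17a1, Acta2 and Msr1 in testis against age in months, with 7, 9, 8, 9, 7 and 5 mice from the youngest to the oldest group. Ccl8 had its highest mean at 20 M (19.0) with 11.4 at 26 M, and the means of Cyp17a1, Acta2 and Msr1 at 26 M lay between those of 14 and 20 M.

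For several of these genes the mean at 26 M lay between those of 14 and 20 M. The mean of Ccl8 was 3.22 ± 3.08 in mice of 3 M, 4.30 ± 2.13 in those of 5 M and 5.71 ± 2.87 in those of 8 M, close to the 5.59 ± 3.05 of 14 M, and it was 19.0 ± 6.19 for 20 M and 11.4 ± 5.13 for 26 M (SD). Acta2 was 247 ± 29.9 and Msr1 260.5 ± 37.7 at 26 M, beside 197 ± 39.8 and 312 ± 41.2 at 20 M. Cxcl13 was 30.6 ± 41.8 at 26 M, where 1 library reached 105, beside 31.0 ± 33.9 at 20 M. These values share the 20 M libraries with the comparison above, and 26 M was not tested against them here.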

How the data were processed

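Testis RNA was sequenced as single reads. Per the labels and the study's methods, the authors trimmed reads, aligned them with HISAT2 2.1.0 to GRCm38, counted them on Ensembl genes and deposited a signal, counts per gene scaled by the DESeq2 size factor of each library, organ by organ. All values (100%) of a testis library could be written as whole reads times 1 factor (tolerance 0.01), which gave back the reads; 0 testis columns were left out, and the liver table was not used here. A gene was tested when 5 or more of the 45 libraries had 10 or more normalized counts, as log2(value + 1) by limma 3.58.1 (R 4.3.3; trended prior, all 6 ages in the fit, two-sided) with Benjamini-Hochberg adjustment at 0.05, after a check on simulated data. edgeR 4.0.16 and DESeq2 1.42.0 were run on the reads as alternatives, besides other scalings, filters, covariates and left-out libraries. Mice were also split into sets by the sign of the first principal component of their heart libraries (30.5% of variance), with 4 of 7 mice at 20 M and 4 of 9 at 14 M in one set.

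Named genes were the 10 higher and 10 lower of smallest p with a mean of at least 100 and no predicted-gene symbol, 3 each way among the rest, up to 3 per list and fixed defining genes, Fetub and Osbpl1a, and genes called by an alternative that calls at most 5. Further Leydig, macrophage and chemokine genes, Hgf, genes whose groups do not overlap, lists of other organs and some alternatives were added after values were seen. The members and lists were chosen with earlier results of these data known. A few genes that these rules name are not reported here. Lists were described by counts and medians only, without a test. Separate mice gave the replicates. Coordinates are from GENCODE vM21 on GRCm38. Intervals and calls rest on reads without molecular identifiers.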

Additional observations from a re-analysis of the deposited data

Results flagged for a closer look

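Each age group of each named gene was searched for a lowest or highest library that lies far from the others, by Dixon's test on log2 values. Of 254 groups searched, 26 (10.2%) held such a library, where chance gives about 1 in 20. Library 20 M r7 was the one far from its group for 8 genes, with the highest Glp2r (169.9 normalized counts), Parn (670.4), Sox9 (437.3), F11r (581.3) and Osbpl1a (1884) and the lowest Ass1 (12.4), Lamb1 (143.0) and Gclc (299.5). Library 20 M r2, one of the 3 with reads of other organs, held the highest Prm1 (26739), Retn (275.7), Cox6b1 (388.3), Sod1 (7257) and Fos (54.0) of its age. Elsewhere at 20 M, F7 was highest in r1 (15.7), Scarb1 lowest in r1 (1516), and Plin1 (4.44) and Bex3 (168.8) lowest in r4. At 14 M, Capn2 was highest in r4 (379.6) and Fshr in r8 (52.2). The lowest values at 14 M were those of Rnase10 (12.9) and Hsd3b1 (182.5) in r9, Ifit3 (5.81) in r4, Gfra1 (62.4) in r7, Lhcgr (36.8) in r2, Cd163 (29.7) in r6 and Ifi202b (3.03) in r3.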

How the results depend on the processing

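The count of called genes rests on the test at its threshold. It was 0 in the reported fit, 1 under quantile normalization and with the set of mice as a replicate block, 2 in DESeq2, and 0 to 1 when 1 library was left out. The called genes were Mt3, and in DESeq2 also Ccl8. Without a filter on low values 1528 genes lay at an unadjusted p of at most 0.05, 810 higher and 718 lower. Leaving out 1 library gave 220 (without 20 M r7) to 492 higher genes (without 14 M r9), 305 to 531 lower genes and 565 to 1023 in all. Without the 3 libraries with reads of other organs there were 704, and without these and 20 M r7 601, and with their marker sum as a covariate 900. The share of higher genes among them was 45.1%, and 53.8% in the fit of these age groups alone. The count of intervals within 2-fold was taken only in the fit of these age groups alone and without a filter. In both it kept within 1.5 times its value, and the other alternatives were not run for it.

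Of 127 named genes tested, 120 kept their sign under all alternatives they were fitted in, which share most or all of their libraries. Without the 3 libraries and 20 M r7, Tex101 turned to 0.0076, Npas2 to -0.0020, Hsd3b6 to 0.0723 and Hsd17b3 to 0.1522, and without the 3 libraries alone Hsd17b3 was 0.0305. Leaving out 1 library moved Acrv1 from -0.049 to 0.0361, Cdkn2a from -0.1107 to 0.0251, Hsd17b3 from -0.154 to 0.0074 and Nr5a1 from -0.0144 to 0.0586. The cause of these turns was not tested. No paired analysis was possible because each mouse belongs to 1 age and replicate numbers do not pair mice between ages. The replicate block is the set of mice from their heart libraries. Beside the call of Mt3 (-1.32) this block gave 838 genes at an unadjusted p of at most 0.05.

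At 9 against 7 mice, genes of few counts had wide intervals, and genes that only a small cell population uses are read at low depth in whole testis.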
